A study of Mus musculus with 9 samples.

Results

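Heat shock proteins and their DnaJ cochaperones were followed in sorted thymic epithelial cells (TEC) of mice in which the level or the gene of the transcription factor Foxn1 was altered. Members were all rows of the count table whose symbol begins with Hspa, Hspb, Hspd, Hspe, Hsph, Hsp90 or with Dnaja, Dnajb or Dnajc followed by a number. This gave 76 of 38720 genes, of which 40 were placed in the cytosol and nucleus, 13 in the endoplasmic reticulum (ER) and 8 in mitochondria. The remaining 15 were J proteins of vesicles or of unsure place, other genes matched by name only, such as Hspb11 and Hspbap1, and the pseudogenes Dnaja1-ps and Dnajc19-ps. The rule uses symbols and no expression value, but it was set with earlier results of these data known.

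Chaperones bind unfolded protein and help it to fold or to be degraded. Hsp70 proteins work in cycles of ATP hydrolysis that J proteins (DnaJ) start, and Hsp90, Hsp60 with Hsp10, and the small heat shock proteins act beside them. In stressed cells the factor HSF1 binds heat shock elements and drives the inducible cytosolic members, whereas the ER members answer to unfolded protein in the ER through ER stress elements. Inducible members also respond to tissue handling and heat.

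The 20 libraries of polyadenylated RNA fall into 6 groups. The sort kept CD45-, EpCAM+, MHC class II+ cells, split into cortical cells (cTEC, Ly51+ and UEA1-) and medullary cells (mTEC, Ly51- and UEA1+). The transgenic groups carried a Foxn1 BAC transgene encoding FLAG-tagged FOXN1 on the nude background (nu/nu), which lacks working Foxn1 of its own, so that the transgene supplied it. They were heterozygous cTEC (wt*/-::nu/nu, n = 3), homozygous cTEC (wt*/wt*::nu/nu, n = 3), heterozygous mTEC (n = 2) and homozygous mTEC (n = 2). Control cTEC (n = 5) came from mice homozygous for beta5t-rtTA and for Foxn1 fl/fl without tetO-Cre, and Foxn1-deleted cTEC (n = 5) from such mice with a heterozygous tetO-Cre. Both were taken 72 h after doxycycline, which switches on Cre in cells expressing beta5t, a cortical proteasome subunit, and removes exons 7 and 8. Age, sex and any pooling of the mice are not stated in the labels. The p-values therefore measure the spread between libraries, which may be technical.

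Library totals ran from 20719600 to 22372600 counts, given to 6 significant digits. Foxn1 counts over the whole gene ran from 1144 to 1209 CPM (counts per 1000000 of the library total) in heterozygous cTEC, 1299 to 1484 in homozygous cTEC, 488 to 502 in heterozygous mTEC and 307 to 329 in homozygous mTEC. In mTEC the order of the 2 doses was thus opposite to that in cTEC. Control cTEC held 351 to 579 CPM of Foxn1 and deleted cTEC 361 to 538, and these overlap. A count over the whole gene includes exons that the deletion leaves and any transcript of the nude allele, so it checks neither change alone. The 6 cTEC markers summed to 9884 to 11179 CPM in homozygous cTEC and 311 to 450 in homozygous mTEC, and the 7 mTEC markers to 128 to 149 and 4555 to 4992. In heterozygous mice the cTEC markers summed to 1030 to 1065 CPM in cTEC and 118 to 124 in mTEC, and the mTEC markers to 687 to 796 and 3937 to 4030. The cTEC markers thus stood less far above the mTEC markers in heterozygous than in homozygous cTEC. Control cTEC held 3463 to 12371 CPM of cTEC markers and 272 to 504 of mTEC markers, and deleted cTEC 748 to 1331 and 314 to 709. Psmb11, which encodes beta5t, was near 0 in both, at 0.410 to 1.79 CPM in controls and at most 0.689 CPM in deleted libraries, against 961 to 1053 CPM in homozygous cTEC. In bulk RNA, fewer cells of a type and less RNA per cell cannot be told apart.

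Promoter sequences from RefSeq (GRCm38.p6, 250 bases before to 50 after each start) were found for 60 of the 76 members, in 77 windows. They were searched for the heat shock element pair GAANNTTC or TTCNNGAA, each of which reads the same on both strands, and for the ER stress element, CCAAT followed 9 bases later by CCACG, on both strands. A pair stood in 18 of 77 member windows (23.4%) against 15.1% of 32851 windows of all genes. Overlapping pairs, which give at least 3 alternating units in a row, stood in 6 of 77 member windows (7.79%) against 0.603% of all. These 6 windows belong to 4 genes, Hspd1, Hspe1, Hsph1 and Dnajb6, and hold 3 separate runs, since windows overlap. The ER stress element was found in 3 of 77 member windows, all of ER members (3 of 13 ER windows), against 0.119% of all windows. A match of letters is a description and not evidence of binding.

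The following stretches end at the base before the start and run 5′ to 3′ on the strand of the gene. They are shown because they carry these letters in central members of each place, with the fixed bases of each element in capitals. The inducible Hsp70 genes Hspa1a (chr17:34972157-34972286, minus strand) and its near-identical copy Hspa1b (chr17:34959239-34959368, minus strand) come first, then Hspe1, the Hsp10 of mitochondria (chr1:55088018-55088147, plus strand).
Hspa1a: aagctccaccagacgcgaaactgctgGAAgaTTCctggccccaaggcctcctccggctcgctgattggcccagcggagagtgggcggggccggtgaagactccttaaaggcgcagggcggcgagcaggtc
Hspa1b: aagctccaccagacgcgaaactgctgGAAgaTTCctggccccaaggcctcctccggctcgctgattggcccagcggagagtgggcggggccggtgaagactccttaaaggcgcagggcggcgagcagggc
Hspe1: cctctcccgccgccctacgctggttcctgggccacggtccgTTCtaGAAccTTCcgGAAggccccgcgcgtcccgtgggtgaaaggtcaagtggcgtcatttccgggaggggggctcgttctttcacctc

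The Hspa1a and Hspa1b windows are identical at 296 of 300 positions, and the transcripts are near-identical too. How reads that match both were counted is not given, so the split between these 2 genes is uncertain. Hspd1, the Hsp60 partner of Hspe1, lies head to head with it: its first annotated start is 216 bases from that of Hspe1, and their windows share 285 bases, so both hold the same run of units. The ER members Hspa5 (BiP, the Hsp70 of the ER; chr2:34771960-34772089, plus strand), Dnajc3 (p58IPK; chr14:118937802-118937931, plus strand) and Hsp90b1 (GRP94, the Hsp90 of the ER; chr10:86705445-86705674, minus strand) carry the ER stress element. In Hsp90b1 it occurs once in each orientation.
Hspa5: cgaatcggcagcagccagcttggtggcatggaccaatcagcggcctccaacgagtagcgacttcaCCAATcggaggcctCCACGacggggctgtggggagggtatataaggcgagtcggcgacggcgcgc
Dnajc3: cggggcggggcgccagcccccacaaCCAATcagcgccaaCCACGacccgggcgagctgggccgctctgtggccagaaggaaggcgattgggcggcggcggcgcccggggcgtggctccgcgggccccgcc
Hsp90b1: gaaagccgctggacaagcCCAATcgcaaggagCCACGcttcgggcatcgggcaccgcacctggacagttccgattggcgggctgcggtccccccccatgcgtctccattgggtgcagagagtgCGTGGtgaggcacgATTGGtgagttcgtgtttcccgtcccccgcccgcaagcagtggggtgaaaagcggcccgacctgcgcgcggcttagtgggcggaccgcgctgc

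**Figure D1:**
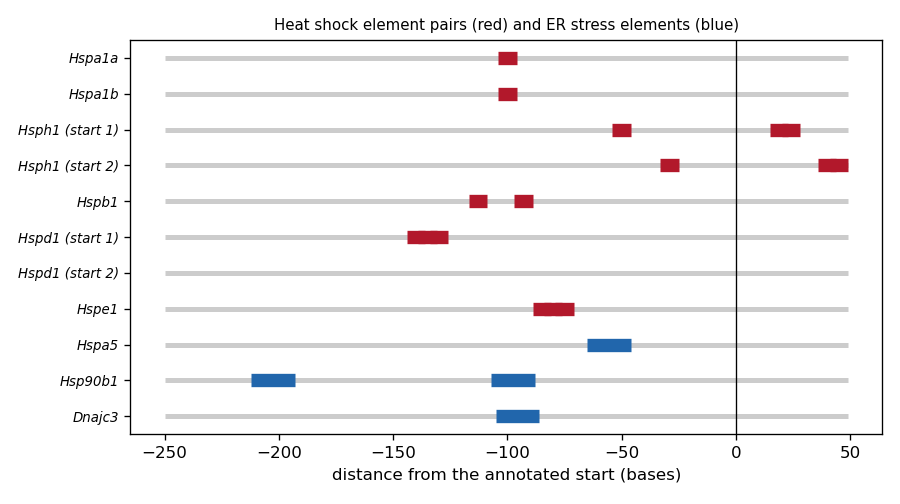
Positions of heat shock element pairs (red) and ER stress elements (blue) in the promoter windows of 9 members, by distance in bases from the annotated start, with a row for each annotated start. Hspa1a and Hspa1b each have 1 pair at -104, Hspe1 has overlapping pairs from -89, and Hspa5 has 1 ER stress element at -65.

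Between control and Foxn1-deleted cTEC the test, fitted without library numbers, called 1 chaperone, Dnajc13. Hspa1a, Hspa1b, Hspb1 and Dnajb1 differed more than 10-fold among libraries of the same group. Of 66 members tested with edgeR's quasi-likelihood test, 0 were higher and 1 was lower in Foxn1-deleted cTEC at an adjusted p of 0.05, against 0.282% of all genes higher and 1.69% lower. Without adjustment, 1 member was higher and 8 lower at p under 0.05. DESeq2 called 0 higher and 2 lower, and limma-voom 0 and 0. No share of all genes is given for the unadjusted threshold or for these tools, so those counts cannot be set against a background. The median log2 fold change of the members was -0.01, beside 0.01 for all genes tested.

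The member called was Dnajc13, a J protein of early endosomes. It was at 403, 423, 497, 450 and 594 CPM in the 5 control libraries and at 303, 349, 317, 351 and 299 CPM in the 5 deleted libraries. All deleted libraries lay below all controls (log2 fold change -0.57 ± 0.12 SE, adjusted p = 0.0364 by edgeR). The call was lost without control library 3, without any one of the 5 deleted libraries, and with limma-voom, with log2 fold changes from -0.65 to -0.46 over all alternatives and an adjusted p of up to 0.116.

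Hspa1a, which encodes the main stress-inducible Hsp70, was at 811, 24.3, 827, 217 and 500 CPM in control libraries 1 to 5. In deleted libraries 1 to 5 it was at 1072, 29.7, 1215, 400 and 763 CPM. The library numbered 2 was the lowest of its group in both, and the groups overlapped (log2 fold change 0.52 ± 0.91 SE, adjusted p = 0.790). Its highest library exceeded its lowest 34.1-fold among controls and 40.8-fold among deleted libraries.

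The same libraries stood low for other inducible members. Dnajb1, the Hsp40 that starts the Hsp70 cycle, was at 644, 74.9, 796, 278 and 470 CPM in controls and 820, 73.3, 1062, 409 and 561 CPM in deleted libraries. Hspb1 (Hsp25), a small heat shock protein, was at 55.0, 2.78, 71.4, 14.0 and 33.7 CPM in controls and 80.5, 2.87, 134, 33.8 and 89.2 CPM in deleted libraries. For both genes library 2 was again lowest and library 3 highest in each group. The inducible Hsp90, Hsp90aa1, ran from 338 to 1011 CPM in controls and from 336 to 1314 CPM in deleted libraries. Hspe1 varied as well, 3.58-fold among controls and 3.84-fold among deleted libraries. Log2 fold changes were 0.34 ± 0.68 SE for Dnajb1, 0.91 ± 0.88 SE for Hspb1 and -0.10 ± 0.40 SE for Hspe1, and none passed in this fit, which takes no account of library numbers. With library numbers added as a block, an alternative, edgeR called Hspa1a, Hspa1b and Hspb1 higher (adjusted p = 0.0239, 0.0130 and 0.0255). No label says that the numbers pair animals. Same-number deviations correlated at 0.60, 0.75, 0.085, 0.35 and 0.45, and only number 3 fell short of the rule for pairing. Calls of these inducible members thus depend on whether library numbers enter the fit.

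Inducible Hsph1 varied 2.92-fold among controls and 3.62-fold among deleted libraries, Dnaja4 2.54-fold and 3.62-fold, and the ER member Dnajb9 1.80-fold and 2.64-fold. Several constitutive members varied less. Hspa5 ran from 955 to 1043 CPM in controls (1.09-fold) and from 931 to 1215 CPM in deleted libraries (1.31-fold). The mitochondrial Hsp70 Hspa9 ran from 232 to 288 and from 223 to 267 CPM. Constitutive Hsp90ab1 ran from 2538 to 2992 CPM in controls and from 2418 to 3171 CPM in deleted libraries. Over the members counted for spread, 5 of 55 in controls and 8 of 54 in deleted libraries varied more than 3-fold, beside 5.73% and 2.27% of all genes. In the transgenic groups this held for at most 2 members.

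Immediate early genes, a list of 18 that rise within minutes of cell handling or stimulation, also varied in these libraries. They summed to 6398 to 15413 CPM in controls and 6922 to 21071 CPM in deleted libraries, with none at 0. The 10 thymocyte markers ran from 69.1 to 584 CPM in controls and from 64.7 to 449 CPM in deleted libraries, with library 2 lowest in both groups, as for Hspa1a, Dnajb1 and Hspb1. Library 2 was also lowest in both groups for markers of mTEC, sorted epithelium, macrophages and dendritic cells, endothelium, B cells and erythroid cells. Immediate early genes were lowest in control library 5 and deleted library 2, and fibroblast markers in control library 5 and deleted library 3. The cTEC markers were lowest in control library 2 and deleted library 1. Fibroblast markers (7 genes, none at 0) summed to 347 to 834 CPM in controls and 773 to 1416 CPM in deleted libraries. The part of any of these in the chaperone values was not tested. Without the libraries numbered 2 of both groups, an alternative chosen after seeing the data, 0 members were higher and 1 lower, and the log2 fold change of Hspa1a was 0.52 (adjusted p = 0.521).

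**Figure D2:**
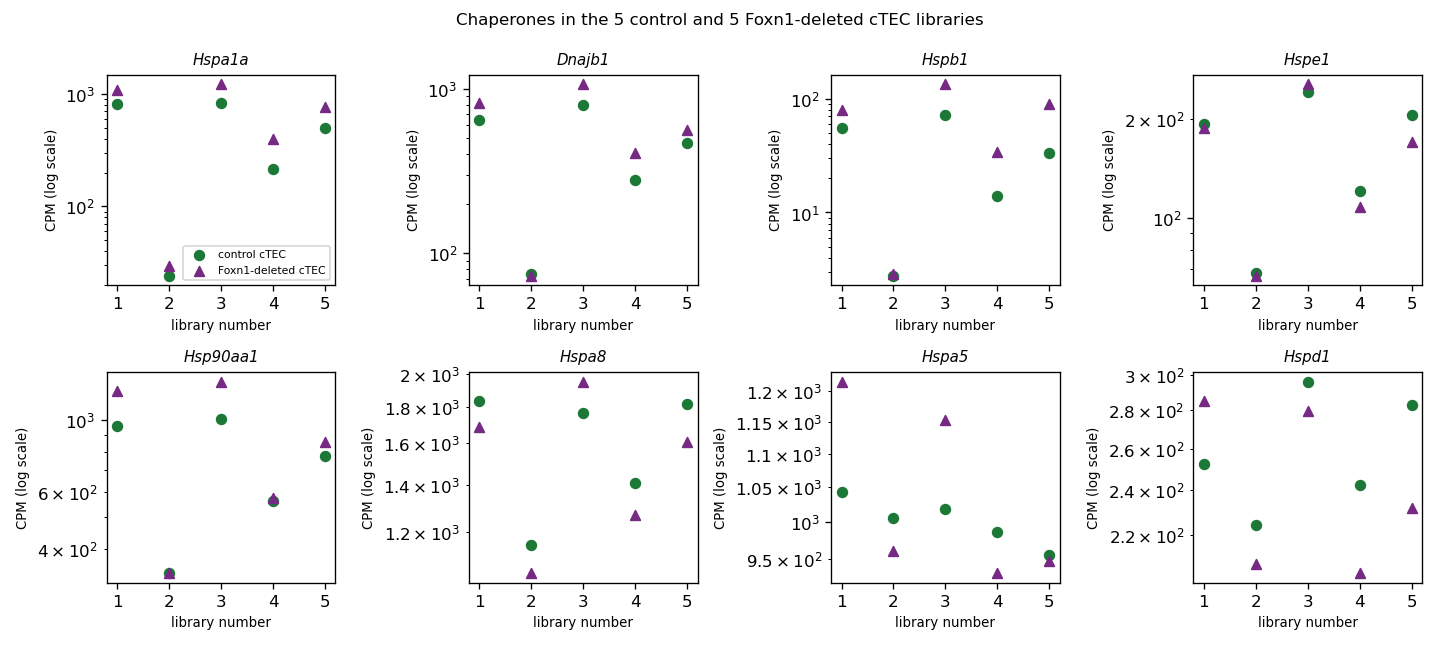
CPM (log axis, a range of its own in each panel) of 8 chaperones in control cTEC (circles) and Foxn1-deleted cTEC (triangles) by library number. Hspa1a is at 24.3 and 29.7 CPM in the libraries numbered 2, while Hspa5 stays between 931 and 1215 CPM.

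Between the doses of the transgene in cTEC, 5 of 8 mitochondrial members and 15 of 38 cytosolic ones were lower in heterozygous than in homozygous cells, and Hspb1 was higher. Of 70 members tested, 12 were higher (20.9% of all genes were) and 25 lower (21.9% of all genes). Their median log2 fold change was -0.09, beside 0.00 for all genes. By place, 7 of 38 cytosolic members were higher and 15 lower, 2 of 13 ER members were higher and 2 lower, and 0 of 8 mitochondrial members were higher and 5 lower. Without normalization factors 21 members were higher and 14 lower, with 8 ER members higher and 0 lower, and with upper quartile factors 14 were higher and 19 lower. Shares of all genes under these scalings are not given, so these counts cannot be set against a background. The CPM printed here use raw totals, so they lack the factors that the log2 fold changes include.

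Hspb1 was at 4.07, 4.26 and 3.07 CPM in heterozygous cTEC and at 0.701, 0.680 and 0.666 CPM in homozygous cTEC. All heterozygous libraries lay above the homozygous ones (log2 fold change 2.33 ± 0.19 SE, adjusted p = 5.4e-07 by edgeR). Hspa2, an Hsp70 best known from male germ cells, was also higher, at 6.21, 4.40 and 5.19 against 2.43, 1.54 and 2.52 CPM (1.15 ± 0.19 SE). The nucleotide exchange factor Hsph1 (Hsp110) was at 54.2, 49.9 and 61.4 against 37.5, 36.0 and 38.7 CPM (0.43 ± 0.08 SE). Dnajc28 (1.16), Hspa12b (0.88), Dnajc7 (0.19) and Dnajc10 (0.16) were called higher too. Hspa12b lost its call with DESeq2 and without heterozygous library 1 or 3 or homozygous library 2 or 3, and Dnajc10 without heterozygous library 2 or homozygous library 1 (adjusted p up to 0.113 and 0.0818).

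Hspa1a was at 37.3, 14.6 and 11.1 CPM in heterozygous cTEC and at 16.1, 12.1 and 10.8 CPM in homozygous cTEC. The groups overlapped, with heterozygous library 1 apart from the others (log2 fold change 0.56 ± 0.35 SE, adjusted p = 0.220). Without that library the log2 fold change was -0.17, and without heterozygous library 3 it was 0.89 with an adjusted p of 0.0233. Dnajb1 was called higher (0.36 ± 0.13 SE, adjusted p = 0.0336). This call was lost with limma-voom, with no filter on low counts, and without heterozygous cTEC library 1, homozygous cTEC library 2 or 3, or either homozygous mTEC library, with log2 fold changes from 0.18 to 0.50 over the alternatives. Leaving out heterozygous cTEC library 1 or homozygous cTEC library 3 each left 7 members higher in place of 12.

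Among the members lower in heterozygous cTEC, Hspa4l, an Hsp110 family member, was at 7.63, 7.69 and 5.46 CPM against 21.9, 20.5 and 24.5 CPM (-1.82 ± 0.11 SE). Dnajb5 was at 6.30, 8.90 and 6.88 against 19.3, 17.7 and 18.6 CPM (-1.47 ± 0.11 SE). Neither gene overlapped between the groups, as held for 29 of the 37 members called. The share of all genes without overlap is not given, so this count has no background. Dnajc12 (-1.10), Hspb8 (-0.72), a partner of Bag3 in selective autophagy, and Dnajc21 (-0.51), a ribosome biogenesis J protein, were lower as well. Constitutive Hspa8 (Hsc70) was at 1148, 1090 and 1181 against 1268, 1252 and 1293 CPM (-0.29 ± 0.06 SE). Dnaja1 (-0.23) and Hsp90aa1 (-0.18) were called lower and lost their calls without normalization factors (-0.09 and -0.05), and Hsp90aa1 also with upper quartile factors and without heterozygous cTEC library 3, homozygous cTEC library 2 or 3, or either heterozygous mTEC library. Hsp90ab1 (-0.09) did not pass.

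In mitochondria, Hspd1 was at 241, 260 and 266 CPM in heterozygous and 281, 295 and 314 CPM in homozygous cTEC (-0.35 ± 0.06 SE). Hspe1 was at 75.7, 73.4 and 73.4 against 87.9, 91.1 and 84.7 CPM (-0.38 ± 0.05 SE). Both genes of the chaperonin were thus lower with no overlap. Hspa9 (-0.20), its J partner Dnaja3 (-0.16) and Dnajc15 (-0.46) completed the 5. Dnaja3 lost its call with upper quartile factors (adjusted p = 0.141) and without heterozygous library 1 or homozygous library 2 or 3. Without normalization factors 3 members were called, and Hspa9 and Dnaja3 were not among them (log2 fold changes -0.07 and -0.03). Of the mitochondrial folding genes and proteases that are no members, 0 of 9 were higher and 4 lower, including Clpp (-0.45) and Grpel1 (-0.31), and 1 was higher and 3 lower without factors.

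In the ER, Dnajc3 was called higher at 165, 163 and 182 against 134, 119 and 138 CPM (0.25 ± 0.06 SE, adjusted p = 0.00634). Hspa5 was at 994, 1008 and 1003 against 860, 835 and 900 CPM. Its CPM did not overlap, yet its fitted log2 fold change was 0.08 ± 0.06 SE (adjusted p = 0.338), and 0.21 without normalization factors (adjusted p = 0.0107). Of 22 other genes of ER folding and the unfolded protein response, 4 were higher and 5 lower, or 11 and 3 without factors. Hsp90b1 (0.10), Dnajb9 (0.11) and Dnajb11 (0.07) did not pass.

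Immediate early genes summed to 4073 to 7828 CPM in heterozygous and 1139 to 2014 CPM in homozygous cTEC, and 14 of 18 were higher. The 10 thymocyte markers summed to 11.0 to 19.3 against 66.6 to 108 CPM, all 10 lower, and the 7 fibroblast markers to 219 to 242 against 37.4 to 39.8 CPM, with 4 higher. The 7 mTEC markers summed to 687 to 796 against 128 to 149 CPM, with 4 higher and 3 lower, and the 6 cTEC markers to 1030 to 1065 against 9884 to 11179 CPM, all 6 lower. Pdgfra, a fibroblast marker, was at 0 in 1 library of homozygous cTEC. Their part in the chaperone differences was not tested.

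**Figure D3:**
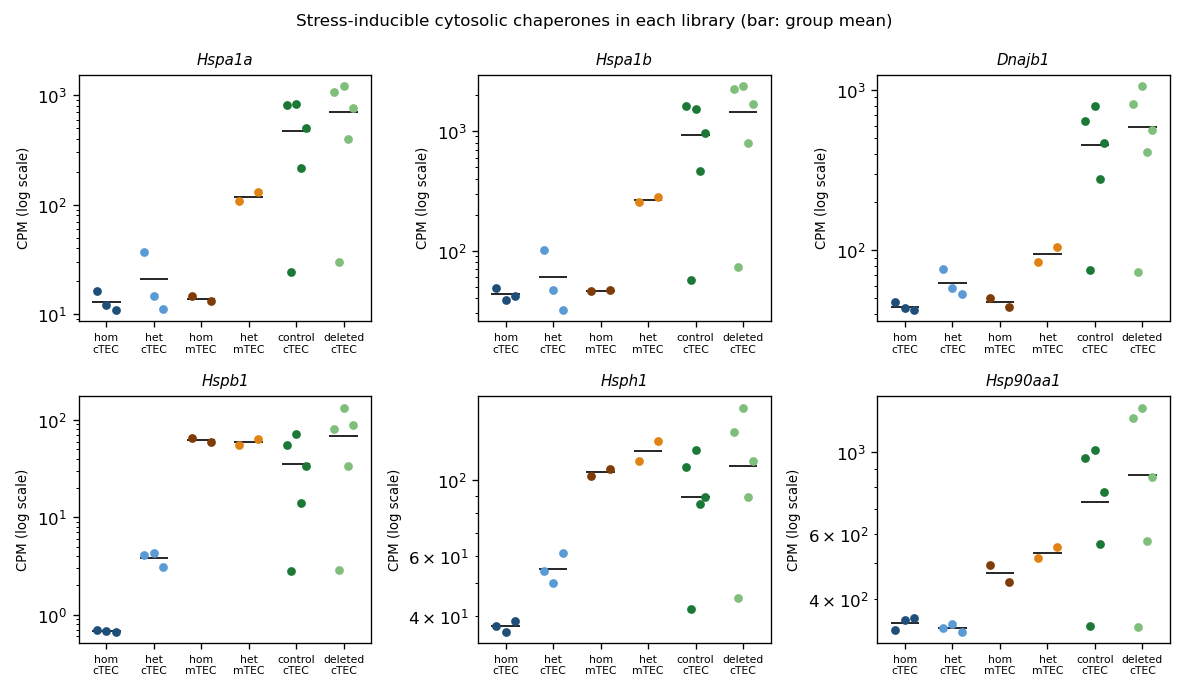
CPM (log axis, a range of its own in each panel) of 6 stress-inducible cytosolic chaperones in each library of the 6 groups, with the group mean as a bar. Hspa1a is at 107 and 130 CPM in heterozygous mTEC, against 14.5 and 13.2 CPM in homozygous mTEC, and spans 24.3 to 1215 CPM in the control and deleted groups.

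In mTEC, the cytosolic Hspa1a, Hspa1b and Dnajb1 and 5 of 8 mitochondrial members were higher in heterozygous than in homozygous cells, and 6 of 13 ER members were lower. Of 70 members tested, 23 were higher (28.9% of all genes were) and 12 lower (30.8% of all genes). The median log2 fold change was 0.08, beside 0.01 for all genes. The direction differed by place: 13 of 38 cytosolic members were higher and 4 lower, 0 of 13 ER members were higher and 6 lower, and 5 of 8 mitochondrial members were higher and 0 lower. With RLE size factors 15 members were higher and 21 lower, with upper quartile factors 17 and 19, and without factors 20 and 15. RLE moved the median of all genes to -0.12. Shares of all genes called under these scalings are not given, so a shift common to all genes is not set apart. Across these 3 scalings 6 to 8 ER members were lower with 0 higher, 4 mitochondrial members were higher with 1 lower, and with RLE 8 cytosolic members were higher and 9 lower.

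Hspa1a was at 107 and 130 CPM in heterozygous mTEC and at 14.5 and 13.2 CPM in homozygous mTEC (log2 fold change 3.12 ± 0.41 SE, adjusted p = 3.3e-05 by edgeR). Hspa1b was at 253 and 279 against 45.8 and 47.1 CPM (2.54 ± 0.37 SE), and its cochaperone Dnajb1 at 85.0 and 105 against 50.2 and 44.2 CPM (1.04 ± 0.15 SE). In all 3 genes both heterozygous libraries lay above both homozygous ones. Between groups of 2 libraries this is common: it held for 29 of 70 members, and 22 lay below. The share over all genes is not given. Constitutive members were higher by less, with Hsp90ab1 at 3742 and 3653 against 2482 and 2464 CPM (0.60 ± 0.08 SE). Hspa8 was at 2281 and 2222 against 1796 and 1651 CPM (0.41 ± 0.07 SE). Hspb1 was at 55.9 and 63.8 against 64.5 and 59.3 CPM, overlapping between the doses (-0.02 ± 0.10 SE, adjusted p = 0.847).

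Hsph1 (0.23) and Hsp90aa1 (0.21) were called higher, but both calls were lost with RLE or upper quartile factors, DESeq2, no filter, and without heterozygous mTEC library 2 or homozygous mTEC library 2. Hsp90aa1 also lost its call with only the mTEC libraries fitted, and Hsph1 without factors, homozygous mTEC library 1 or any one homozygous cTEC library (adjusted p up to 0.429 for Hsph1 and 0.384 for Hsp90aa1). Hspb7 (1.07), Dnajc27 (0.48), Dnajc13 (0.42) and the ribosome-associated Dnajc2 (0.37) were higher. Dnajc22 was lower, at 2.21 and 2.17 against 7.96 and 8.19 CPM (-1.86 ± 0.18 SE), as were Dnajb13 (-1.08), Dnajc12 (-0.65), Hspb11 (-0.58) and Hspa12a (-0.52). Hspa12a lost its call without heterozygous mTEC library 1 (adjusted p = 0.0762).

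The mitochondrial chaperonin was higher in heterozygous mTEC. Hspd1 was at 535 and 544 against 345 and 333 CPM (0.69 ± 0.07 SE), and Hspe1 at 206 and 204 against 135 and 135 CPM (0.63 ± 0.06 SE). Hspa9 was at 323 and 323 against 246 and 247 CPM (0.41 ± 0.06 SE). Dnajc11, a J protein of the inner membrane organising system, was at 80.0 and 82.3 against 47.5 and 54.9 CPM (0.69 ± 0.08 SE). None of these 4 overlapped between the doses, as held for all 35 members called. Dnaja3 (0.17) lost its call in 8 of 18 alternatives, among them each other scaling and the omission of library 2 of either mTEC group (adjusted p up to 0.650). Of 9 other mitochondrial folding genes and proteases 6 were higher, including Trap1 (0.54) and Lonp1 (0.40), and 2 lower, Clpx (-0.32) and Grpel2 (-0.22), and with RLE 4 were higher and 3 lower.

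The 6 ER members called were all lower in heterozygous mTEC. Hspa5 was at 1240 and 1338 CPM in heterozygous and 1877 and 1704 CPM in homozygous mTEC (-0.45 ± 0.07 SE). Hsp90b1 was at 1326 and 1409 against 1711 and 1731 CPM (-0.31 ± 0.07 SE), and Dnajc3 at 117 and 125 against 164 and 163 CPM (-0.41 ± 0.08 SE). These 3 genes carry the ER stress element shown above. They did not overlap between the doses, which held for all 35 members called and is thus not particular to them. The BiP cochaperones Dnajb11 (-0.42) and Dnajb9 (-0.39), and Dnajc14 (-0.21), were lower too. The promoter windows of these 3 genes held no ER stress element, so the lower values were not confined to genes with it. Dnajb9 lost its call without homozygous mTEC library 1 (log2 fold change -0.25, adjusted p = 0.0790). Of 22 other ER genes 8 were lower, including Creld2 (-0.84) and Sel1l (-0.64), and 5 higher, including the stress sensors Eif2ak3 (0.28) and Ern1, at 124 and 129 against 57.9 and 61.9 CPM. With RLE 11 were lower and 2 higher.

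Among cytosolic partners that are no members, 8 of 8 subunits of the chaperonin TRiC were higher, from 0.35 to 0.55 on the log2 scale. All 8 were also higher under the 3 other scalings, with a median of 0.32 with RLE beside 0.45 here. Of 16 Hsp70 and Hsp90 cochaperones 10 were higher, including Fkbp4 (0.72) and Ppid (0.53), and 1 lower, Bag1 (-0.20), and with RLE 6 were higher. Hsf1, the main heat shock factor, was at 47.9 and 43.4 against 29.6 and 34.8 CPM (0.53 ± 0.09 SE). Immediate early genes summed to 2728 to 2885 CPM in heterozygous and 1047 to 1181 CPM in homozygous mTEC, with 11 of 18 higher. Macrophage and dendritic cell markers (6 genes tested, none at 0) summed to 105 to 108 against 523 to 618 CPM, with 5 lower. Their part in these differences was not tested.

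**Figure D4:**
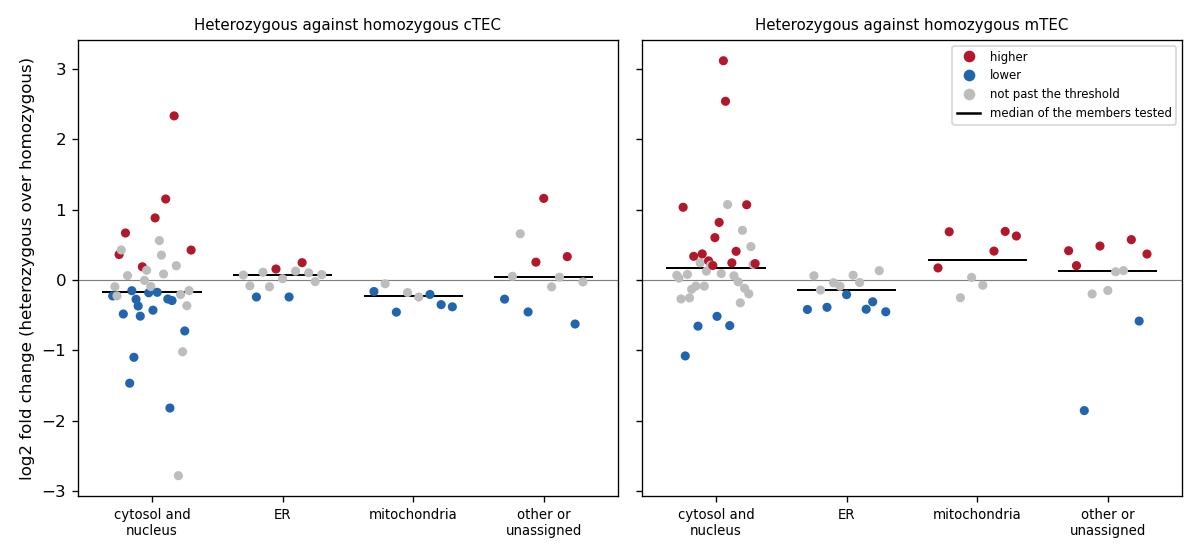
Log2 fold change of heterozygous over homozygous cells for each member tested, by place, in cTEC (left) and mTEC (right); red points were higher, blue lower, grey did not pass, and lines are medians. Mitochondrial members have 5 lower in cTEC and 5 higher in mTEC, and ER members have 6 lower in mTEC.

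The effect of dose differed between the subsets for many members. The interaction, the dose difference in mTEC minus that in cTEC, was above 0 for 25 of 70 members (25.2% of all genes) and below 0 for 12 (17.2% of all genes). By place it was above 0 for 18 and below 0 for 3 of 38 cytosolic members, 1 and 7 of 13 ER members, and 5 and 0 of 8 mitochondrial members. Without normalization factors the totals were 16 and 15, with 11 and 6 in the cytosol, 0 and 7 in the ER and 4 and 0 in mitochondria. The share of all genes without factors is not given. The chaperonin genes gave 1.04 ± 0.09 SE for Hspd1 (adjusted p = 1.7e-06) and 1.01 ± 0.08 SE for Hspe1 (adjusted p = 7.7e-07). Both doses of each subset enter these values. In all, 10 members (14.3% of the 70, beside 5.06% of all genes) were called lower in heterozygous cTEC and higher in heterozygous mTEC. They were Hspd1, Hspe1, Hspa9, Dnaja3, Hspa8, Hspa4, Hsp90aa1, Dnajb5, Dnajc2 and Dnajc13, and calls of Dnaja3 and Hsp90aa1 are lost under the alternatives named above. With RLE 6 members had this pattern (8.57%, beside 3.07% of all genes), without factors 5 (7.14%, beside 2.68%) and with upper quartile factors 7 (10%, beside 2.89%). Dnajc3 and Hspa2 were called in the opposite directions (4.30% of all genes), 3 members were lower in both subsets (7.57%) and 5 higher in both (9.11%). The opposite directions held for 3 members with RLE (5.17% of all genes), 7 without factors (5.64%) and 5 with upper quartile factors (5.33%).

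**Figure D5:**
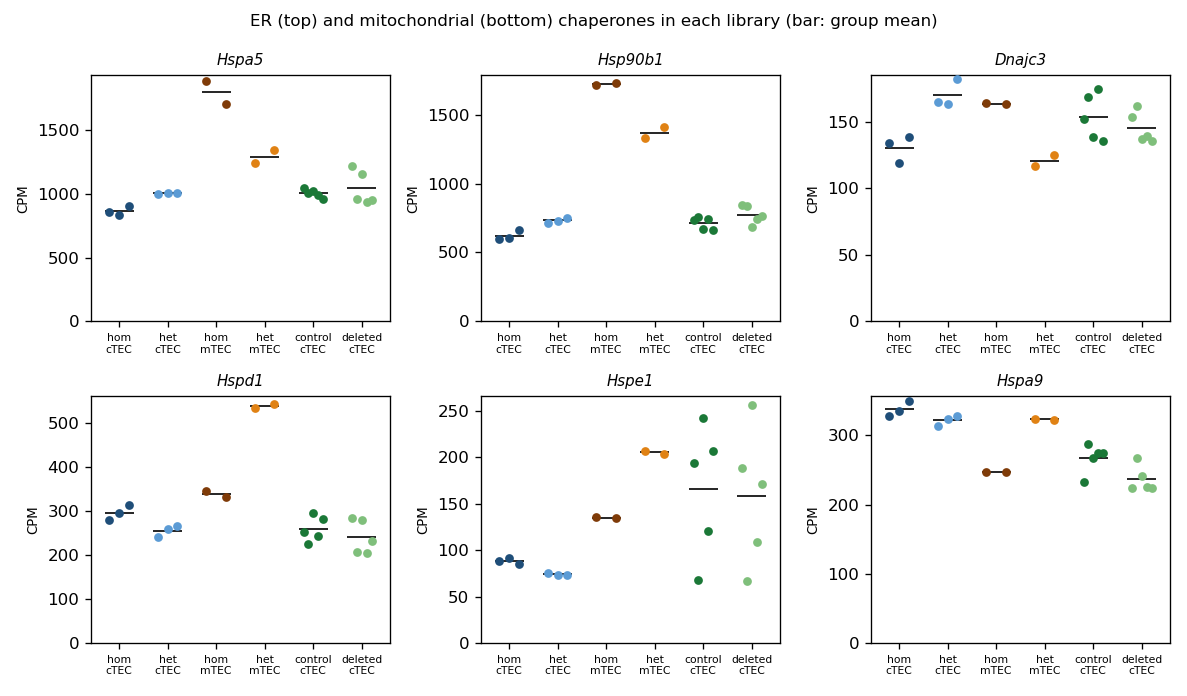
CPM (linear axis from 0) of 3 ER chaperones (top) and 3 mitochondrial chaperones (bottom) in each library of the 6 groups, with the group mean as a bar. Hspa5 is highest in homozygous mTEC (1704 and 1877 CPM), and Hspd1 in heterozygous mTEC (535 and 544 CPM).

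Between the subsets, mTEC of homozygous mice held far more Hspb1 and more Hspa5 and Hsp90b1 than cTEC, and 5 of 8 mitochondrial members were lower. In homozygous mice 27 of 70 members were higher in mTEC (43.2% of all genes were) and 25 lower (39.4% of all genes), with 15 and 12 of 38 in the cytosol, 6 and 5 of 13 in the ER and 2 and 5 of 8 in mitochondria. Without normalization factors, as with upper quartile factors, 34 were higher and 16 lower, and the median of all genes moved from 0.04 to 0.28. Dnaja1 and Hspd1, not called here (-0.05 each), were called higher under both (0.19 and 0.20 without factors). In heterozygous mice 36 members were higher in mTEC (40.4% of all genes) and 19 lower (31.6% of all genes), and without factors 43 and 13. By place these were 23 and 8 in the cytosol, 4 and 6 in the ER and 4 and 2 in mitochondria. Without heterozygous mTEC library 1 or 2, the lower members numbered 11. Counts with other scalings or with a library left out have no share of all genes beside them. These comparisons share libraries with the dose comparisons.

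Hspb1 at 64.5 and 59.3 CPM in homozygous mTEC stood against 0.666 to 0.701 CPM in homozygous cTEC (log2 fold change 6.25 ± 0.15 SE, adjusted p = 3.3e-13 by edgeR). In heterozygous mice the difference was 3.89 ± 0.11 SE. Hspa4l was higher in mTEC in both, at 128 and 118 CPM in homozygous and 126 and 126 CPM in heterozygous mTEC (2.22 and 4.10 on the log2 scale). Dnajc22 was higher by 5.56 and 3.05, and Hspb11 by 1.01 and 1.06, on that scale. Hspb7 was at 6.12 and 5.57 CPM in heterozygous mTEC and at no more than 0.0459 CPM in heterozygous cTEC. Hsp90b1 (1.23 in homozygous and 0.82 in heterozygous mice) and Hspa5 (0.81 and 0.28) were higher in mTEC at both doses. Hspa1a was called higher in mTEC of heterozygous mice (2.40 ± 0.34 SE) and did not pass in homozygous mice (-0.15 ± 0.40 SE), and the difference between these is the interaction of 2.56 ± 0.53 SE (adjusted p = 0.00169).

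Members lower in mTEC included Dnajc13, at 128 and 133 CPM in homozygous mTEC against 656, 676 and 678 CPM in cTEC (-2.60 ± 0.07 SE), and by -1.91 in heterozygous mice. Hspb8 (-1.54 and -1.01), Dnajb4 (-1.31 and -1.51) and the ER Hsp70 Hspa13 (-1.10 and -0.94) were lower at both doses. In mitochondria, Hspe1 was higher in mTEC by 0.37 and 1.38, while Hspa9 was lower in homozygous mice (-0.70) and did not pass in heterozygous mice (-0.08). Macrophage and dendritic cell markers were higher in homozygous mTEC, 6 of 6, at 523 to 618 against 3.47 to 5.70 CPM, and their part was not tested. Dnajc13 was the member with the smallest adjusted p among those lower in mTEC of both doses, and the one called in the deletion.

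Of the 76 members 8 stayed under a mean of 1 CPM in all 6 groups: Dnaja1-ps, Dnajb7, Dnajb8, Dnajc19-ps, Dnajc5b, Dnajc5g, Hspb3 and Hspb9. In total 10 members were not tested in the deletion set and 6 in the transgenic set, where the filter on low counts removed them. Hspa1a ran from 10.8 to 37.3 CPM in transgenic cTEC and from 24.3 to 1215 CPM in control and deleted cTEC. Mouse line, doxycycline and set differ together between these, and their effects cannot be told apart.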

How the data were processed

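The deposited table holds raw read counts of 38720 genes in 20 libraries, made by the authors. The submitters' processing notes name TopHat2 2.0.10 and featureCounts among others, and the builds mm10 and GRCm38. The labels state neither annotation nor strand setting, so overlapping and antisense genes cannot be told apart. ChIP and ATAC samples were not analysed here.

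Counts were tested with edgeR 4.0.16 (R 4.3.3): TMM factors, filterByExpr (minimum count 10, total 15), quasi-likelihood test, two-sided, Benjamini-Hochberg over all genes tested, threshold 0.05. Deletion used its 10 libraries, and the transgenic comparisons used theirs in 1 fit of 4 groups. CPM use raw totals. Standard errors are the absolute log2 fold change over the root of F. Other scalings, no filter, DESeq2 1.42.0, limma-voom (limma 3.58.1), a replicate block and each library left out were alternatives. The test was also run on simulated data. No 2 libraries of a group agreed within sampling noise.

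The rule named 18 central chaperones in every comparison, and per direction up to 5 other called members of smallest adjusted p whose CPM did not overlap. From each pathway list it took up to 2 genes per direction. Genes named outside it were chosen after their values were seen. Members and lists were chosen with earlier results of these data known.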

Additional observations from a re-analysis of the deposited data

Results flagged for a closer look

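Differences between the dose effect in mTEC and that in cTEC that passed the interaction test (edgeR, adjusted p under 0.05) are given on the log2 scale, as mTEC minus cTEC. Among central cytosolic members they were 2.56 for Hspa1a, 2.19 for Hspa1b, 0.70 for Hspa8, 0.70 for Hsp90ab1, 0.67 for Dnajb1, 0.39 for Hsp90aa1, 0.29 for Dnaja1 and -2.36 for Hspb1. In the ER they were -0.66 for Dnajc3, -0.53 for Hspa5, -0.50 for Dnajb9, -0.49 for Dnajb11 and -0.41 for Hsp90b1. In mitochondria they were 1.04 for Hspd1, 1.01 for Hspe1, 0.62 for Hspa9 and 0.34 for Dnaja3. Other members above 0 were Hspa4l (1.88), Dnajb5 (1.80), Dnajc2 (0.74), Dnajc11 (0.74) and Dnajc13 (0.69). Those below 0 were Dnajc22 (-2.51), Hspa2 (-1.80), Dnajb13 (-1.51), Dnajc28 (-1.31) and Dnajc10 (-0.25). Of these calls 7 were lost under some of 17 alternatives: Dnaja1 in 7 (adjusted p up to 0.284), Dnaja3 in 4 (0.118), Dnajb13 in 4 (0.0770), Dnajb1 in 3 (0.102), Hsp90aa1 in 2 (0.0694), Dnajc10 in 2 (0.0600) and Dnajb9 in 1 (0.0547). In the deletion set, no library stood apart by Dixon's test on CPM in 38 checks of groups of 5. Hspa1a in control library 2, at 24.3 CPM against 217 to 827 in the other controls, was not flagged. On this linear scale a low library is hard to flag, so the checks do not clear it.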

How the results depend on the processing

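Counts of members are given as higher and lower. No share of all genes is given for these settings, so a change common to all genes is not set apart. For the deletion, DESeq2 called 2 lower and limma-voom 0. Leaving out 1 library gave 0 higher and 0 to 1 lower. For dose in cTEC, no normalization factors gave 21 higher and 14 lower, and leaving out 1 library 7 to 12 and 20 to 26. For dose in mTEC, RLE gave 15 and 21, DESeq2 14 and 19, upper quartile 19 lower, and leaving out 1 library 17 to 25 and 12 to 16. For the subsets in homozygous mice, 16 were lower without factors and with upper quartile, and 24 to 29 and 22 to 25 with 1 library left out. In heterozygous mice that range was 36 to 40 and 11 to 20. For the interaction, no factors gave 16 higher, and leaving out 1 library 20 to 26 and 9 to 13. Where a group of 2 was left with 1 library, its spread was assumed to be that of the others. Between homozygous subsets Dnaja1 changed sign and became called (0.19 without factors, 0.20 with upper quartile), as did Hspd1 (0.20 and 0.20).

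Library numbers are in the column names only, and no label says that they pair animals. In the deletion set same-number deviations correlated at 0.60, 0.75, 0.085, 0.35 and 0.45. Different-number deviations correlated at -0.62 to 0.33. The rule for pairing has to hold for every number, and the 0.085 of number 3 did not meet it. With the replicate block, 3 members were higher (Hspa1a, Hspa1b and Hspb1; log2 fold change 0.53 and adjusted p = 0.0239 for Hspa1a) and 1 lower. The deleted library was the higher of the same number in 5 of 5 pairs for these 3 genes, Hsph1 and the ER member Hsp90b1. It was the higher in 0 of 5 pairs for Hspa9, Dnaja3 and Dnajc13. No share of all genes is given for these pair counts or for the block calls. Libraries numbered 3 did not correlate best with each other. In the transgenic set the block gave 11 and 25 for dose in cTEC and 23 and 12 in mTEC. Groups of 2 libraries limit the precision of every mTEC value.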
